A study of Homo sapiens with 8 samples.

Results

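The 9 genes S100A2, S100A4, S100A6, S100A8, S100A9, S100A11, S100A13, S100A14 and S100A16 were taken by symbol from the 50006 genes counted in BEAS-2B cells. All 9 were found, each as 1 entry on chromosome 1 with no second annotated copy. They were chosen by their read counts and fold changes over the 4 groups in these same libraries, so differences of the 9 genes are described with counting intervals and carry no test. Tests are given for other genes.

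S100 proteins are small vertebrate calcium sensors that mostly act as dimers. On binding calcium through their EF hands they expose a surface that docks onto annexins, cytoskeletal proteins and regulators such as p53. Some are also released, and then bind surface receptors such as RAGE (gene AGER) and the Toll-like receptor TLR4. Most of the genes lie together on the long arm of chromosome 1, beside the genes of the cornified envelope, and several are known as markers of stratified and basal epithelium.

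BEAS-2B is an immortalised human bronchial epithelial line, wild type by its label and grown in all groups in the serum-free medium LHC-9. FBG cells received fibrinogen, FCP cells a preparation called Der m 1-derived FCPs, and aC cells the αC domain of fibrinogen, each at 4 ng/µl for 4 h. Mock cells received PBS. FCP is not spelled out in the labels, and the wording of the title ties the αC domain to the mite allergen instead. Each group had 2 libraries, 8 in all, labelled as biological replicates without saying whether cultures were separate. A p-value therefore speaks of the spread between the deposited libraries, which could be technical. FBG, FCP and aC were set against the same 2 Mock libraries.

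Total counts were 15137196 to 22258791 per library, lowest in FBG and highest in aC, so depth moved with the groups. Levels are CPM, counts scaled by library size with TMM factors, and 3 counts in a library equal 0.202 CPM in FBG, 0.131 in FCP, 0.127 in aC and 0.200 in Mock. The FCP and aC libraries stood apart from the FBG and Mock libraries in markers of cell identity. The 7 basal epithelial markers summed to 2937 to 2977 CPM in FCP and 3019 to 3093 in aC, against 409 to 422 in FBG and 416 to 419 in Mock. KRT17 carried the sum in FBG and Mock, at means of 351 and 348 CPM. By edgeR's quasi-likelihood test KRT5 rose in FBG against Mock, at 7.28 against 2.03 CPM. KRT14 (0.270 against 2.27) and ITGA6 (55.6 against 63.7) fell, and the other 4 were not called. The 8 fibroblast markers summed to 230 to 232 CPM in FCP and 242 to 243 in aC, against 1227 to 1235 in FBG and 2390 to 2423 in Mock, with COL3A1 at 0 throughout. COL1A1 carried that sum, at means of 1089 CPM in FBG and 2155 in Mock. In FBG 4 of the 6 tested fibroblast markers fell against Mock, and PDGFRA rose, at 1.75 against 0.567 CPM. The 7 epithelial markers summed to 1978 to 2008 CPM in FCP, 1874 to 1878 in aC, 805 to 818 in FBG and 957 to 967 in Mock. KRT8 and KRT18 carried that sum in FBG and Mock and fell in FBG by edgeR's quasi-likelihood test, while 4 of the 7, among them EPCAM, CDH1 and ESRP1, rose in FBG. Of all tested genes 24.2% rose and 26.3% fell in FBG. GRHL2, a factor of epithelial identity, had 0 counts in Mock. Secretory and ciliated markers stayed at or under 0.674 CPM in sum in every library. A response of the cells and any other difference that ran along the same division cannot be told apart, and in bulk RNA neither can fewer cells of a type and less RNA per cell. Whether the FCP and aC libraries came from the same culture of cells as the FBG and Mock libraries is not given in the labels and was not tested, so each ratio to Mock is a difference between these libraries, not one shown to come from the exposure.

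S100A2, S100A14 and S100A9 were the 3 genes of the 9 that were far higher in FCP and aC than in FBG and Mock, and S100A6 was lowest in FCP and aC. Their promoter windows are printed because these are the genes on which the description turns. Each is 300 bases around an annotated start, from RefSeq on GRCh38.p14, with S100A9 on the plus strand and the others on the minus strand. S100A2 has a second annotated start, whose window is not printed. Capitals mark the motif matches that are described after the sequences.
S100A2, chr1:153565795-153566094: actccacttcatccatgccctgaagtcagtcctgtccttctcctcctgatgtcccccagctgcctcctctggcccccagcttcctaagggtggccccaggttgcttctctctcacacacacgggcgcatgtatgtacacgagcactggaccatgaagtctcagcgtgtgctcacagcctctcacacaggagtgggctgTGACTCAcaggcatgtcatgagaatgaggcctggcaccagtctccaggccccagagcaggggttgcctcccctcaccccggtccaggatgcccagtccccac
S100A14, chr1:153616276-153616575: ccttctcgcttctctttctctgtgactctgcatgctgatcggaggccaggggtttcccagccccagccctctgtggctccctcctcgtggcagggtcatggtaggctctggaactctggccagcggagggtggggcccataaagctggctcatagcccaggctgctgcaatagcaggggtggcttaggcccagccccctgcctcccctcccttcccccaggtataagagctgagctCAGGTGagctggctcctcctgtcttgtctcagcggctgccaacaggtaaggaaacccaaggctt
S100A9, chr1:153357604-153357903: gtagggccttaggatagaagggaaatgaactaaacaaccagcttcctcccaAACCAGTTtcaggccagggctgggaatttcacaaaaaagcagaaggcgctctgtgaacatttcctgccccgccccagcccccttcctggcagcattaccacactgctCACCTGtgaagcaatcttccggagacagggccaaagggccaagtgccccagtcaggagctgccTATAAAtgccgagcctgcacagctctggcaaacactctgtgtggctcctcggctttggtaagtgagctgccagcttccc
S100A6, chr1:153535942-153536241: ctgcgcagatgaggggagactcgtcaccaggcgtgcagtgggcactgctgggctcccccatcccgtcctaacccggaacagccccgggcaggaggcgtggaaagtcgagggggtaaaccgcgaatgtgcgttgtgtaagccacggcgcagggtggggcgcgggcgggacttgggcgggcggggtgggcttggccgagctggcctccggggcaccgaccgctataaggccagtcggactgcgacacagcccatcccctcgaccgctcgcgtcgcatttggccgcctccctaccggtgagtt

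Motifs were searched on both strands, and no match overlapped another. The printed S100A2 window held the AP-1 motif TGANTCA at bases 199 to 205, a motif present in 7.71% of 35116 RefSeq promoter windows of the same length. The window of the second S100A2 start held no AP-1 match. It held the E-box CACCTG at bases 233 to 238. The S100A14 window held the E-box, read on the opposite strand, at bases 237 to 242, and 20.6% of all windows hold it. In the S100A9 window the grainyhead motif AACNNGTT lay at bases 52 to 59, the E-box at 159 to 164 and TATAAA at 222 to 227. The grainyhead motif is present in 3.52% and TATAAA in 11.5% of all windows. The S100A6 window held none of the 6 motifs. Over all 15 windows of the 9 genes, AP-1 matched 1, grainyhead 1, the E-box 9, TATAAA 5, the C/EBP motif TTGCNNAA 1 and the p53 family motif 1. The 3 windows of S100A8 overlap and hold 1 E-box in common, and 2 of them hold the same TATAAA, so windows are not separate sites. The C/EBP motif occurs in 10.5% and the p53 family motif in 6.63% of all windows. A match describes letters in a window and not a bound site.

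S100A2 (minus strand, 153561108 to 153565844), a protein of basal keratinocytes and basal airway cells that binds p53, had 59 and 68 counts in FBG, 9482 and 9262 in FCP, 8528 and 8469 in aC, and 85 and 81 in Mock. Its exons share no base with another gene. The FCP and aC libraries were far above the others, and within each of these divisions no libraries of different groups overlapped. The level was 74.0 times that of Mock in FCP (95% counting interval 63.5 to 86.7) and 65.0 times in aC (55.8 to 76.2). In FBG it was 0.773 times that of Mock (0.609 to 0.980). With GC content and length trends removed, the log2 fold change against Mock was 6.81 in FCP, against 6.21 without that step. Per kilobase of exon, S100A2 ranked 81 of all genes in both FCP libraries and 91 and 97 in aC, against 7546 to 7966 in FBG and 6855 to 6988 in Mock. KRT5, a keratin of the same basal cells, had means of 1581 and 1603 CPM in FCP and aC, against 7.28 in FBG and 2.03 in Mock. The part of cell identity in the S100A2 level was not tested.

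S100A14 (minus strand, 153614255 to 153616325), an epithelial S100 protein linked to adhesion and motility, had 13 and 24 counts in FBG, 3320 and 3187 in FCP, 3253 and 3197 in aC, and 6 and 2 in Mock. FCP and aC formed one high set, FBG lay between, and Mock was lowest with no overlap between FBG and Mock. The ratio to Mock was 533 in FCP (270 to 1235), 512 in aC (259 to 1185) and 4.68 in FBG (2.14 to 11.6). These ratios rest on 8 counts in Mock: the log2 fold change in FCP was 9.02 with both Mock libraries, 9.98 without Mock replicate 1 and 8.44 without Mock replicate 2. In FBG it was 3.16, 1.62, 2.57 and 1.69 without Mock replicate 1, Mock replicate 2, FBG replicate 1 and FBG replicate 2. In rank per kilobase the gene stood at 305 to 322 in FCP and 324 to 330 in aC.

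S100A9 (plus strand, 153357854 to 153361023) pairs with S100A8 (minus strand, 153390032 to 153422583) to form calprotectin, the zinc and manganese binding protein of neutrophils and stressed epithelium. S100A9 had 7 and 1 counts in FBG, 84 and 91 in FCP, 130 and 121 in aC, and 1 and 1 in Mock. The aC libraries were the highest, the FCP libraries next, and 1 of the FBG libraries lay at the level of Mock. With 2 counts in Mock, the ratio was 57.3 in FCP (15.6 to 477), 79.6 in aC (21.8 to 661) and 4.04 in FBG (0.807 to 39.1). The FBG value rests on 1 library, with a log2 fold change of 0.01 without FBG replicate 1 and 2.71 without FBG replicate 2, against 1.92 with both.

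S100A8 stayed near the detection limit. It had 1 and 0 counts in FBG, 0 and 2 in FCP, 5 and 2 in aC, and 1 and 0 in Mock. All 8 libraries were within a few counts of 0, and the ratio of aC to Mock was 4.44 with an interval of 0.571 to 200. S100A8 was the 1 gene of the 9 that did not pass the filter on low counts. Of 11 myeloid and neutrophil markers, 9 had at most 3 counts in every group, among them SPI1, ELANE and FCGR3B at 0 throughout. Their summed level was at most 14.7 CPM in FCP and 14.8 in aC, against 20.3 to 22.8 in FBG and 28.8 to 34.5 in Mock. CD68 carried it, with means of 11.8 CPM in FCP, 12.1 in aC and 29.8 in Mock. CD14 had means of 2.45 CPM in FCP, 2.41 in aC, 1.45 in FBG and 1.83 in Mock. Its difference from Mock was not called in any group. The part of such cells in the S100A9 count was not tested.

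**Figure D1:**
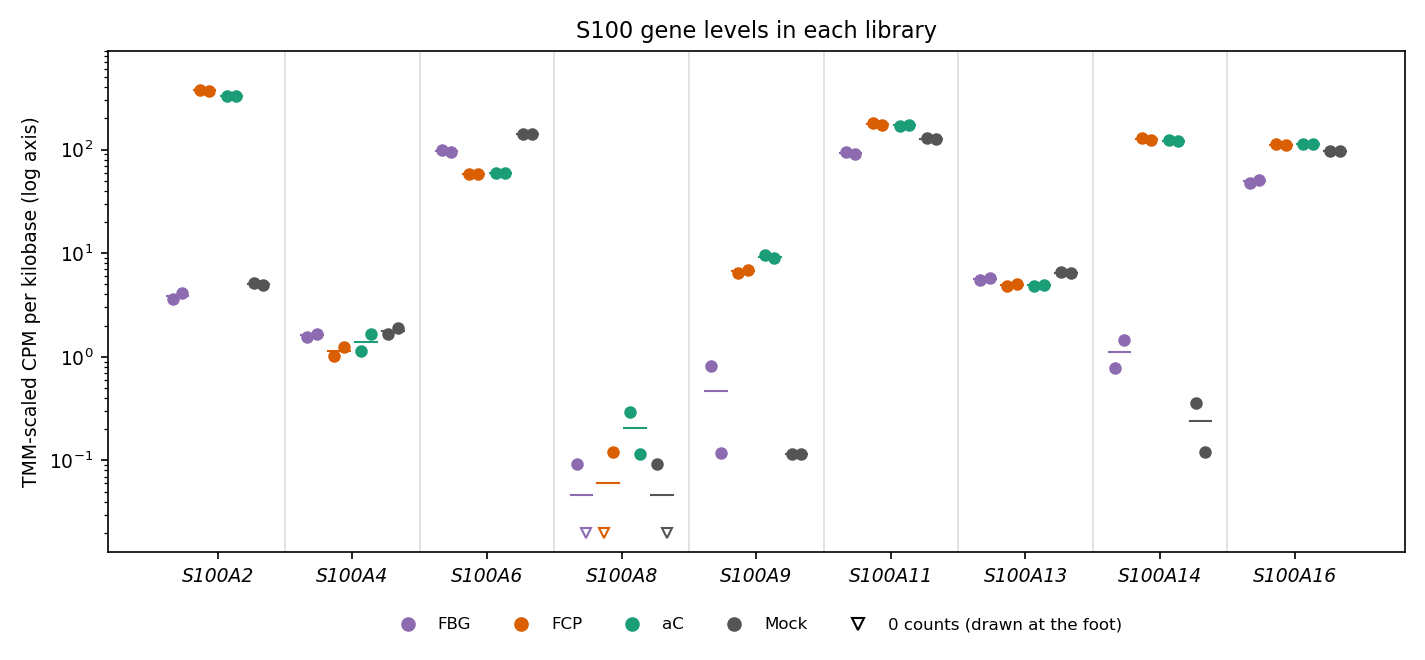
Level of each S100 gene in every library, in TMM-scaled CPM per kilobase of exon on a log axis, with a line at each group mean. S100A2, S100A9 and S100A14 are high in FCP and aC (S100A2 at 326 to 377), S100A6 is highest in Mock, and S100A8 stays within a few counts of 0.

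S100A6 (minus strand, 153534599 to 153535991), also called calcyclin, a partner of annexins and of the calcyclin-binding protein, was lower in all 3 groups than in Mock. Its levels were 44.4 and 43.1 CPM in FBG, 26.2 and 26.3 in FCP, 26.8 and 26.4 in aC, and 63.8 and 62.9 in Mock. Mock was highest, FBG next, and FCP and aC lowest, with no overlap between any of these groups and a narrow gap between FCP and aC. The ratio to Mock was 0.690 in FBG (0.643 to 0.741), 0.414 in FCP (0.385 to 0.445) and 0.420 in aC (0.391 to 0.451). Removing GC content and length trends moved the log2 fold change in FCP to -0.68, against -1.27 without that step, which is below a 2-fold difference. Of the 449 exon bases, 48.3% are shared with LOC124904423 on the opposite strand, and counting recorded no strand option. LOC124904423 itself was counted at 1.89 CPM in FBG, 1.55 in FCP, 1.80 in aC and 2.10 in Mock.

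S100A11 (minus strand, 152032506 to 152037004), a partner of annexin A1 in keratinocytes, and S100A16 (minus strand, 153606883 to 153613137), which can pair with S100A14, were abundant in every group. S100A11 levels were 52.9 and 51.0 CPM in FBG, 102 and 97.7 in FCP, 95.2 and 97.8 in aC, and 72.3 and 71.6 in Mock. S100A16 levels were 79.6 and 84.4 CPM in FBG, 186 and 185 in FCP, 189 and 190 in aC, and 159 and 160 in Mock. Both genes lay below Mock in FBG and above Mock in FCP and aC, with no overlap with Mock.

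For S100A16 the ratio to Mock was 0.513 in FBG (0.488 to 0.539), 1.16 in FCP (1.12 to 1.20) and 1.18 in aC (1.14 to 1.23). For S100A11 it was 0.722 in FBG (0.676 to 0.771), 1.39 in FCP (1.32 to 1.46) and 1.34 in aC (1.27 to 1.41). Over 14 alternative fits, log2 fold changes against Mock in FCP ran from 0.45 to 1.04 for S100A11 and from 0.20 to 0.79 for S100A16. In aC they ran from 0.41 to 0.99 and from 0.23 to 0.78. The main fit lay near the low ends, at 0.47 and 0.22 in FCP and 0.42 and 0.24 in aC. Counting intervals do not cover this spread. Set directly against FBG, the FCP level was 2.26 times as high for S100A16 (2.16 to 2.37) and 1.92 times for S100A11 (1.81 to 2.04). The aC level was 2.31 times that of FBG for S100A16 (2.21 to 2.42) and 1.86 times for S100A11 (1.75 to 1.97).

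S100A13 (minus strand, 153618799 to 153634361), which takes part in the release of FGF1 and IL1A without a signal peptide, had 19.5 and 20.3 CPM in FBG, 16.8 and 17.8 in FCP, 17.0 and 17.6 in aC, and 23.2 and 22.7 in Mock. Mock was highest without overlap, and FCP and aC overlapped each other. The ratio to Mock was 0.868 in FBG (0.777 to 0.971), 0.755 in FCP (0.681 to 0.837) and 0.752 in aC (0.679 to 0.834). With GC content and length trends removed the log2 fold changes of S100A13 were near 0, at -0.03 in FBG, -0.06 in FCP and -0.07 in aC. Of its exon bases 8.1% are shared with S100A1 and CHTOP.

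S100A4 (minus strand, 153543621 to 153545806), a myosin-binding protein of motile and mesenchymal cells, was scarce in every group. Its counts were 13 and 14 in FBG, 13 and 16 in FCP, 15 and 22 in aC, and 14 and 16 in Mock. The libraries lay close together, and the ratio to Mock was 0.910 in FBG (0.520 to 1.58), 0.633 in FCP (0.367 to 1.09) and 0.782 in aC (0.470 to 1.31). Every one of these intervals includes 1, so no difference was detectable at this depth. Of its exon bases 21.2% are shared with S100A5 and LOC101928034.

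**Figure D2:**
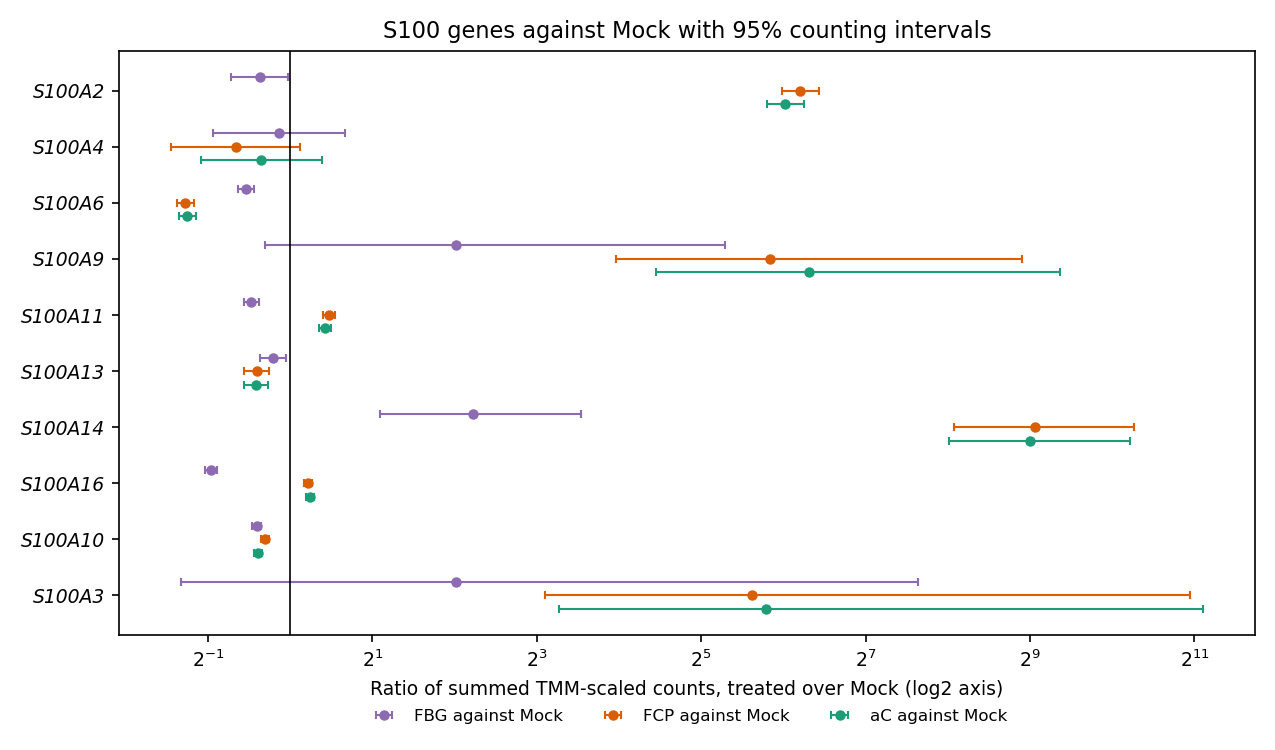
Ratio of summed TMM-scaled counts to Mock for FBG, FCP and aC, on a log2 axis, with bars for the 95% counting interval. S100A10 and S100A3 are shown beside the 8 of the 9 genes that passed the filter. S100A14, S100A2 and S100A9 lie 57.3 to 533 times above Mock in FCP, S100A6 lies at 0.414, and S100A11 and S100A16 fall on opposite sides of 1 in FBG and in FCP and aC.

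Of the 8 genes that passed the filter, at least a 2-fold difference from Mock was seen for 2 higher and 0 lower in FBG, where 8.93% of all 16307 tested genes were that much higher and 3.26% that much lower. The 2 were S100A14 and S100A9, whose interval in FBG includes 1. In FCP, 3 were at least 2-fold higher and 1 lower, beside 21.9% and 9.66% of all tested genes. In aC the counts were also 3 and 1, beside 22.8% and 9.81%. Against FBG, 4 were at least 2-fold higher and 0 lower in FCP (15.8% and 8.1% of all tested genes), and likewise in aC (17.2% and 8.33%). The median log2 fold change of the 8 against Mock was -0.29 in FBG, 0.34 in FCP and 0.33 in aC, beside 0.02, 0.06 and 0.06 over all tested genes. These medians do not depend on the fitted values of S100A9 and S100A14, which lie above them. Since the list was drawn up from these data, nothing is read from these shares.

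FCP and aC were close for most of the family. None of these 8 genes differed by 2-fold in either direction between them, where 1.7% of all tested genes were that much higher in aC and 1.29% that much lower, and where 9.01% passed the test in either direction. S100A2 was lower in aC, at 0.878 times the FCP level (0.860 to 0.897), and its aC libraries lay below both FCP libraries. S100A9 was higher in aC, at 1.39 times the FCP level (1.14 to 1.69), with both aC libraries above both FCP libraries. The interval for S100A14 was 0.927 to 0.994, for S100A11 0.928 to 1.01, for S100A16 0.990 to 1.05, for S100A6 0.937 to 1.10 and for S100A13 0.903 to 1.10. S100A4 could be told apart from no difference only to within 0.740 to 2.08. These intervals cover counting error only. For S100A9 the fitted standard error on the log2 scale was 0.286, against 0.142 for counting alone. For S100A14 it was 0.0630 against 0.0253, so both intervals are narrower than the fit would give.

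Per kilobase of exon, which allows genes to be compared, the order of the 9 genes in FBG and in Mock was S100A6, S100A11, S100A16, S100A13, S100A2, S100A4, S100A14, S100A9 and S100A8. In FCP and in aC it was S100A2, S100A11, S100A14, S100A16, S100A6, S100A9, S100A13, S100A4 and S100A8. S100A2 led FCP at 372 CPM per kilobase and aC at 327, while S100A6 led FBG at 97.4 and Mock at 141. Neighbours in these orders did not overlap between their libraries, except S100A14 and S100A9 in FBG. Among S100A14, S100A9 and S100A8 in FBG and Mock this rests on few counts. In Mock S100A9 had 1 and 1 counts and S100A8 had 1 and 0. If only exon bases that no other gene shares are counted as length, a setting chosen after seeing the data, S100A6 stands above S100A16 in FCP (113 against 112) and in aC (115 against 114).

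The summed level of all 20 S100 genes in the files was 480 and 487 CPM per kilobase in FBG, 1121 and 1101 in FCP, 1046 and 1047 in aC, and 690 and 681 in Mock. S100A2 made up 33.4% to 33.6% of that sum in FCP and 31.1% to 31.4% in aC, against 0.754% to 0.856% in FBG and 0.721% to 0.748% in Mock. S100A14 added 11.3% to 11.6% in FCP and 11.6% to 11.8% in aC, while in FBG and Mock it stayed at or under 0.297%. The share of S100A6 was 5.20% to 5.32% in FCP and 5.62% to 5.71% in aC, against 19.7% to 20.6% in FBG and 20.6% in Mock. S100A2 alone thus exceeded S100A6 by 6.28 to 6.47 times per kilobase in FCP and 5.50 to 5.54 times in aC. With only unshared exon bases as length the gap is smaller, at 372 against 113 CPM per kilobase in FCP and 327 against 115 in aC. Of all counts, the 9 genes took 0.0199% to 0.0202% in FBG, 0.0925% to 0.0943% in FCP, 0.0883% to 0.0884% in aC and 0.0294% to 0.0295% in Mock.

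**Figure D3:**
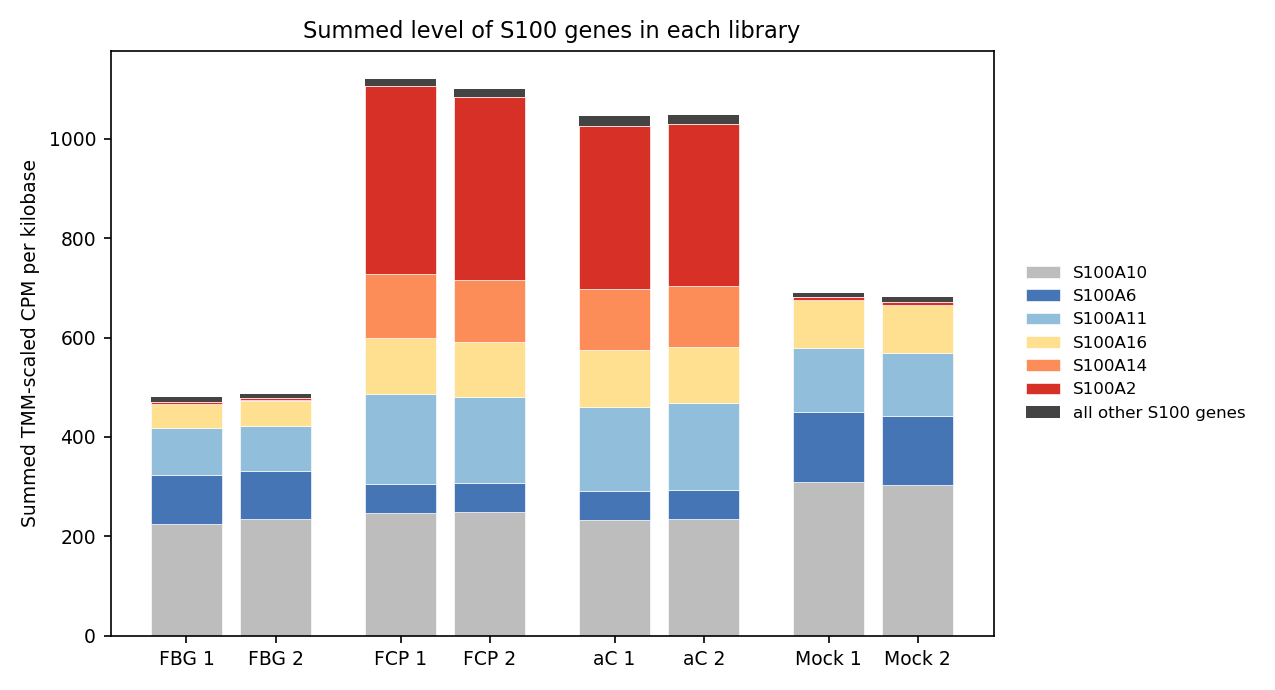
Summed level of the 20 S100 genes in each library, in TMM-scaled CPM per kilobase of exon, stacked by gene. The bars reach 1121 and 1101 in FCP and 1046 and 1047 in aC, with S100A2 and S100A14 visible only there, against 480 and 487 in FBG and 690 and 681 in Mock.

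Of the S100 genes outside the 9, 11 of 12 looked up were found and 3 passed the filter. S100A10, the light chain partner of annexin A2, was the most abundant S100 gene per kilobase in FBG and Mock, with means of 155 CPM in FBG, 166 in FCP, 157 in aC and 205 in Mock. It fell by 0.41 on the log2 scale in FBG (SE 0.03, edgeR adjusted p = 2.6e-11), by 0.30 in FCP (SE 0.03, edgeR adjusted p = 6.3e-10) and by 0.39 in aC (SE 0.03, edgeR adjusted p = 7.8e-12). With GC content and length trends removed, its log2 fold change was 0.25 in FCP and 0.16 in aC, the opposite direction, so the direction of S100A10 in FCP and aC depends on that step.

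S100A3, known from the hair cuticle, had 2 and 2 counts in FBG, 42 and 33 in FCP, 50 and 37 in aC, and 0 and 1 in Mock. It rose in FCP (ratio 49.1, interval 8.55 to 1966, edgeR adjusted p = 8.7e-08) and aC (ratio 55.2, interval 9.65 to 2205, edgeR adjusted p = 4.1e-08). In FBG the ratio was 4.04 (0.400 to 199, edgeR adjusted p = 0.24). The standard errors of S100A3 on the log2 scale were 0.63 in FCP and 0.62 in aC. Counting error alone was 1.45 in each, so these p-values may be too small. LOC101928034 shares 9.4% of the S100A3 exon bases and had 2.86 CPM in FCP, 2.45 in aC, 0.135 in FBG and 0.0667 in Mock. The part of this overlap in the S100A3 count was not tested. S100A1, an S100 protein of muscle, had 27 counts in FCP, 14 in aC, 9 in FBG and 11 in Mock, and passed no test against Mock (edgeR adjusted p = 0.79 in FBG, 0.32 in FCP and 0.69 in aC). With GC content and length trends removed it was called higher in FCP, at a log2 fold change of 1.34 (edgeR adjusted p = 0.037), against 0.68 without that step. S100A5, S100A7, S100A7A, S100A12, S100B, S100G, S100P and S100Z had at most 4 counts in any library.

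Between S100A10 and S100A13 the annotation lists 64 genes that are not S100 genes, of which 7 passed the filter. Against Mock, 1 rose and 1 fell in FBG, 5 rose and 1 fell in FCP, and 5 rose and 1 fell in aC, with log2 fold changes of -0.57 to 5.29 in FCP. Of all tested genes 24.2% rose and 26.3% fell in FBG, 37.3% rose and 36.1% fell in FCP, and 38.0% rose and 36.7% fell in aC. In FCP, S100A6 at a log2 fold change of -1.27 and S100A2 at 6.21 lay within this stretch, so its genes stood on both sides of Mock. CHTOP, which overlaps S100A13, had a log2 fold change of -0.42 in FBG, -0.57 in FCP and -0.53 in aC.

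**Figure D4:**
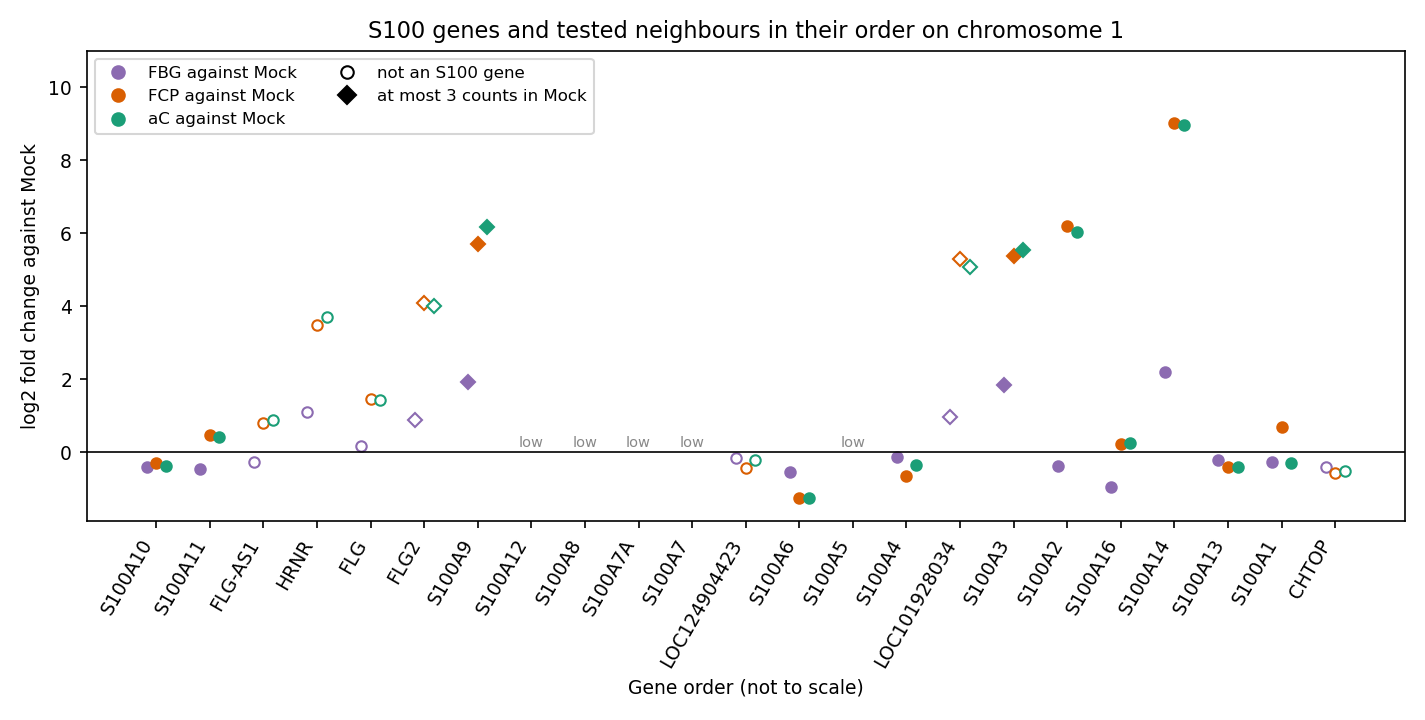
Log2 fold change against Mock of S100 genes (filled) and of tested neighbours (open) in their order on chromosome 1, for FBG, FCP and aC. Diamonds mark genes with at most 3 counts in Mock, whose fitted values depend on the prior count, and S100 genes below the filter are marked low. High values in FCP and aC (S100A14 at 9.02 and 8.96) stand beside negative ones (S100A6 at -1.27 and -1.25).

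Receptors to which released S100 proteins bind were tested next. All 4 that passed the filter changed against Mock: 3 rose and 1 fell in FBG, and 1 rose and 3 fell in both FCP and aC. The shares of all tested genes are those given for the neighbours. TLR4, a receptor for calprotectin, had means of 113 CPM in FBG, 38.8 in FCP, 37.1 in aC and 95.6 in Mock. It fell by 1.30 on the log2 scale in FCP (SE 0.05, edgeR adjusted p = 4.0e-17) and by 1.37 in aC (SE 0.05, edgeR adjusted p = 1.6e-17). In FBG its log2 fold change was 0.24 (SE 0.04, edgeR adjusted p = 7.6e-05), and -0.08 with GC content and length trends removed. AGER, which encodes RAGE, had 1 count in 1 aC library and 0 in every other.

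BSG, which encodes basigin, a receptor for S100A9, fell by 0.50 in FBG, 0.59 in FCP and 0.59 in aC on the log2 scale, to means of 593, 554 and 555 CPM against 836 in Mock. EMB (embigin), a relative of basigin that binds S100A8 and S100A9, rose in FCP and aC, with means of 68.5 and 71.0 CPM, beside 41.0 in FBG and 31.3 in Mock. ALCAM, an adhesion receptor also reported for S100 ligands, had 360 CPM in FBG, 222 in FCP, 235 in aC and 302 in Mock. In FBG the log2 fold changes of EMB and ALCAM were 0.39 and 0.25, and both turned negative (-0.07 and -0.17) with GC content and length trends removed. The edgeR adjusted p-values of these 3 genes were 1.4e-06 or smaller in each comparison with Mock.

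Of 17 intracellular partners, all of which passed the filter, 3 rose and 9 fell in FBG, 6 rose and 9 fell in FCP, and 6 rose and 9 fell in aC. These counts stand beside the shares of all tested genes printed above for the chromosome 1 neighbours. The median log2 fold change was -0.17 in FBG, -0.17 in FCP and -0.24 in aC. ANXA1, the annexin partner of S100A11, rose by a log2 fold change of 2.00 in FCP (SE 0.03, edgeR adjusted p = 3.5e-24) and 1.94 in aC (SE 0.03, edgeR adjusted p = 5.3e-24), with means of 306 and 293 CPM against 76.7 in Mock. ANXA2, the partner of S100A10, fell to 1683 CPM in FBG, 1481 in FCP and 1413 in aC, against 2442 in Mock, with edgeR adjusted p-values of 5.3e-07, 2.4e-08 and 1.7e-08. ANXA5 and ANXA6 fell too, by 0.91 and 0.63 on the log2 scale in FCP and by 0.98 and 0.70 in aC, and by 0.17 and 0.46 in FBG. ANXA11 fell by 0.45 in FBG, 0.58 in FCP and 0.53 in aC. Among the 5 annexins named, ANXA1 was thus higher in FCP and aC and the other 4 were lower.

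IL1A, a cytokine released with the help of S100A13, had 2 and 2 counts in FBG, 1233 and 1325 in FCP, 1889 and 1948 in aC, and 2 and 2 in Mock. It was 419 times as high as Mock in FCP (163 to 1539, edgeR adjusted p = 8.7e-24) and 609 times in aC (238 to 2235, edgeR adjusted p = 1.6e-24). S100A13 itself was at 0.755 and 0.752 times Mock there. MDM2, the ubiquitin ligase of p53, rose by log2 fold changes of 0.53 in FBG, 0.85 in FCP and 0.86 in aC. PPP5C, a phosphatase bound by S100 proteins, fell by 0.89 in FCP and 0.94 in aC. IQGAP1 rose by 0.35 in FBG on the same scale, and SUGT1 by 0.47 in FBG. Levels in FCP and aC were similar to those in FBG. IQGAP1 had means of 599 CPM in FBG, 588 in FCP and 577 in aC, against 469 in Mock. SUGT1 had 83.7, 83.8 and 80.3 CPM in these groups, against 60.3 in Mock. SUGT1 changed sign in all 3 comparisons with GC content and length trends removed (-0.01 in FBG, -0.35 in FCP and -0.41 in aC).

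Of 12 tested regulators of S100 genes, 1 rose and 8 fell in FBG, 7 rose and 5 fell in FCP, and 8 rose and 3 fell in aC. Most tested genes were called in FCP and aC, by the shares printed above for the chromosome 1 neighbours. TP63, the p53 relative that drives basal epithelial genes and is known to act on S100A2, had 1 and 3 counts in FBG, 1811 and 1820 in FCP, 2595 and 2552 in aC, and 1 and 1 in Mock. Its ratio to Mock was 1189 in FCP (329 to 9824, edgeR adjusted p = 1.1e-24) and 1633 in aC (452 to 13486, edgeR adjusted p = 2.5e-25). S100A2 and TP63 were thus both high in the 4 FCP and aC libraries, with TP63 higher in aC and S100A2 higher in FCP. HIF1A rose by log2 fold changes of 0.45 in FBG, 0.44 in FCP and 0.74 in aC. JUNB rose by 0.80 in FCP and 1.09 in aC.

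RELA, a subunit of NF-kB, fell by 0.73 in FCP and 0.65 in aC on the log2 scale, JUN by 0.61 and 0.68, and CEBPB, a factor of the calprotectin genes, by 1.06 and 0.57. FOSL1, an AP-1 subunit, fell by 0.91 in FBG (SE 0.04, edgeR adjusted p = 3.0e-15), and had log2 fold changes of 0.40 in FCP and 0.42 in aC. STAT3 fell by 0.35 and CEBPD by 0.67 in FBG. In FCP the log2 fold changes of STAT3 and CEBPD were -0.11 and -0.36, and they turned to 0.07 and 0.30 with GC content and length trends removed. In aC, CEBPD rose by 0.48, to a mean of 90.6 CPM against 64.9 in Mock. STAT3 in FCP was also 0.11 with library size as the only scaling.

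The genes of the cornified envelope and the fused-type S100 proteins were mostly too low to test: 6 of 37 passed the filter. Not all of the 37 lie beside the S100 genes. HRNR and FLG do, while CSTA and KRT10 lie outside the stretch from S100A10 to S100A13. Of the 6 tested, 1 rose in FBG, and 5 rose and 1 fell in both FCP and aC. Over all tested genes, 24.2% rose in FBG, 37.3% rose and 36.1% fell in FCP, and 38.0% rose and 36.7% fell in aC. HRNR (hornerin), a fused-type S100 protein, had 21 and 22 counts in FBG, 192 and 155 in FCP, 205 and 212 in aC, and 11 and 9 in Mock. Its log2 fold change was 1.11 in FBG (SE 0.24, edgeR adjusted p = 0.0073), 3.49 in FCP (SE 0.22, edgeR adjusted p = 1.3e-12) and 3.71 in aC (SE 0.22, edgeR adjusted p = 3.9e-13). The FBG call was lost with the DESeq2 Wald test (log2 fold change 1.09, adjusted p = 0.052) and without Mock replicate 2 (0.97, edgeR adjusted p = 0.073). FLG (filaggrin) rose to means of 12.3 CPM in FCP and 12.2 in aC, and CSTA (cystatin A) to 9.30 and 9.49, against 4.50 and 2.47 in Mock. KRT10, a keratin of the layers above the basal one, fell by 0.87 on the log2 scale in FCP and in aC.

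**Figure D5:**
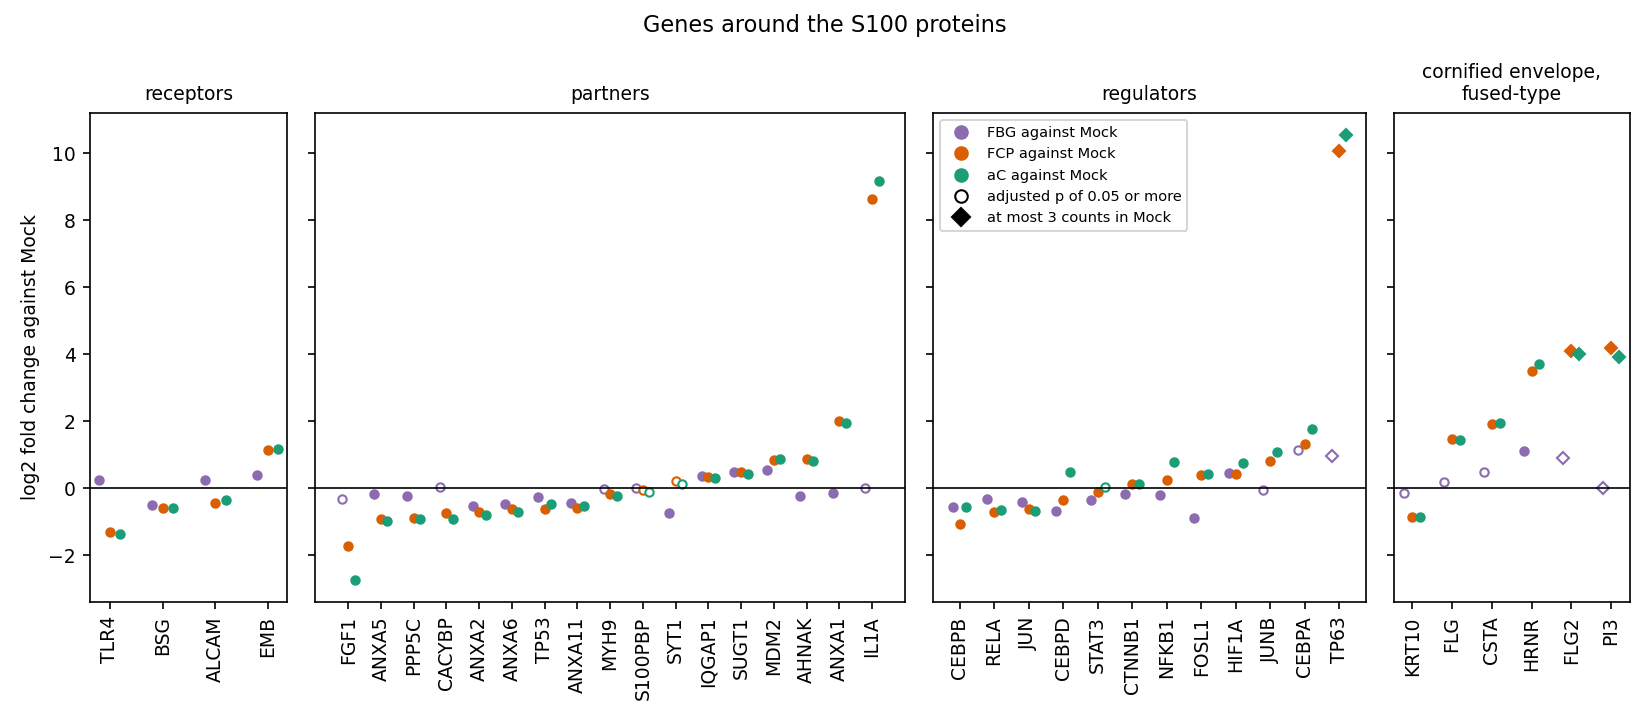
Log2 fold change against Mock of every tested receptor, partner, regulator and cornified envelope or fused-type gene, for FBG, FCP and aC. Filled symbols have an edgeR adjusted p under 0.05, and diamonds mark genes with at most 3 counts in Mock, whose fitted values depend on the prior count. TP63 and IL1A lie far above the other genes in FCP and aC, while TLR4 lies at -1.30 and -1.37.

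Genes whose profile over the 8 libraries was nearest to each S100 gene, by distance between centred log2 CPM over 9335 genes averaging 10 CPM or more, differed from member to member. For S100A2 they were TMEM40, FGFBP1 and CBLC, at distances of 0.591, 0.845 and 0.976. S100A14 had ESRP1, CYP24A1 and KRT5 nearest, at 0.905, 1.47 and 1.54. FAM83B and TMC6 were near S100A9, at 1.18 and 1.25. S100A6 lay close to CALM3 (0.0853), which encodes calmodulin, and SRM (0.102).

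Nearest to S100A11 were HIP1, MARS2 and SLC44A1, at distances of 0.119 to 0.137, and to S100A16 SPEG, SMTN and MT1X, at 0.116 to 0.193. For S100A13 they were GPN2, IL17RA and BAHD1, at 0.0780 to 0.0889, and for S100A4 DTD2, MCOLN1 and TMEM185B, at 0.301 to 0.351. Distances are larger for S100A2, S100A9 and S100A14, whose levels span a wide range. For S100A9 and S100A14 they also rest on few counts in Mock. No gene was named as nearest to more than 1 of the S100 genes. Within the groups the 2 libraries differed by no more than 1.81 counting standard deviations for any of the 9 genes with at least 20 counts in the pair. This closeness was not particular to the 9. Over 12861 to 15061 genes per group, the mean squared difference was 1.27 to 1.34 times the counting variance. Those genes had at least 20 counts in the pair and no second annotated copy.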

How the data were processed

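RNA was sequenced in 8 libraries of BEAS-2B cells. Deposited are unnormalised counts of read pairs, which the authors made with featureCounts by summing exons into genes. No option for strand or multi-mapping reads appears in the command, per the file headers. FeatureCounts is 1.6.0 there and 1.6.2 in the submitters' processing notes, which also list Trimmomatic 0.39, HISAT2 2.2.1, SAMtools 1.9 and the build GRCh38.p14. Exon lengths and coordinates are those of the deposited files. Reads shared by overlapping or near-identical genes may be split or lost.

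Counts were fitted with edgeR 4.0.16 in R 4.3.3 (robust quasi-likelihood, TMM, filterByExpr by group, all 8 libraries in 1 fit, 4 residual degrees of freedom), and 16307 genes passed. P-values were adjusted by Benjamini-Hochberg over these within each of 6 comparisons, and a gene was called under 0.05. Standard errors are the log2 fold change over the square root of F. They lay below counting error in 12 of 24 fold changes of the 9 S100 genes against Mock, so those genes carry exact 95% intervals of the ratio of summed counts instead. The same held for S100A3 and HRNR in FBG, FCP and aC and for S100A10 in FBG, so their adjusted p-values may be too small. Those of TP63 and IL1A, which rest on 2 and 4 summed counts in Mock, may be too small as well. Intervals and floors (3 counts) cover counting error only. GC content and length trends could be removed over the 85.8% of tested genes with a value. Fold changes of these genes against Mock followed GC content, with Spearman rho across genes of -0.41 in FBG, -0.27 in FCP and -0.23 in aC. The fit was tested on simulated data.

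Members, gene lists and tests were chosen with earlier results of these data known. Named are every S100 gene past the filter, the 3 genes of each list with the smallest p in each direction, TP63, ANXA2, AGER and TLR4, and the 3 genes nearest in profile, of which 2 in all are not reported here. KRT5, KRT8, KRT14, KRT17, KRT18, ITGA6, EPCAM, CDH1, ESRP1 (as a marker), COL1A1, COL3A1, PDGFRA, GRHL2, the 2 myeloid markers and overlapping genes were named after their values were seen. Same-numbered libraries showed no shared deviation, so numbers were not used as pairs. No cell was sorted, and batches are not given in the labels.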

Additional observations from a re-analysis of the deposited data

How the results depend on the processing

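Of 18 fold changes of at least 2-fold among the 9 S100 genes, none changed sign in 252 alternative values, and 3 fell below 2-fold: S100A6 in FCP (-0.68) and aC (-0.72) with GC content and length trends removed, and S100A9 in FBG (0.01) without FBG replicate 1. Some smaller fold changes passed 2-fold at their extreme value. These were S100A11 in FCP against Mock (1.04), in FCP against FBG (1.31) and in aC against FBG (1.26), and S100A16 in FBG against Mock (-1.01). Genes called in aC against FCP numbered 1470, and 867 with the DESeq2 Wald test and 853 to 1616 leaving out 1 library. Calls among receptors in FBG numbered 4, and 2 with GC content and length trends removed. Calls among cornified envelope and fused-type genes in FBG numbered 1, against 2 with DESeq2 size factors, 2 with library size only, 2 with no filter, 0 with the DESeq2 Wald test and 1 to 3 leaving out 1 library. With GC content and length trends removed, log2 fold changes changed sign for S100A10 (0.25 in FCP, 0.16 in aC), CEBPD (0.30) and STAT3 (0.0718) in FCP, SUGT1 (-0.00727 in FBG, -0.35 in FCP, -0.41 in aC), and in FBG for ALCAM (-0.17), EMB (-0.0738), TLR4 (-0.0786) and JUNB (0.22). STAT3 in FCP was 0.11 with library size only. The cause was not tested. Library size only moved the median of all genes against Mock to 0.13 in FBG, 0.28 in FCP and 0.29 in aC, and the share of calls that were higher to 63.3%, 63.1% and 63.4%, against 47.9%, 50.8% and 50.9%. With the replicate block, 8128 genes were called in FBG, 11906 in FCP and 12130 in aC against Mock, beside 8226, 11969 and 12183. Correlations of same-numbered libraries were -0.03 to 0.06. Depth limits S100A8, S100A4 and ratios to the few Mock counts of S100A9 and S100A14.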
